A study of Caenorhabditis elegans with 16 samples.

Results

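Small RNAs bound by HRDE-1 were sequenced from young adult *C. elegans* in 1 library of control animals, *GFP::HRDE-1*, and 1 library of *cde-1(tm936);GFP::HRDE-1* animals. These 2 libraries were chosen by their labelled antibody target, genotype and stage from the 16 samples of the series. Both strains carried the same transgene, *hrde-1p::GFP::HRDE-1(ustIS68)*, in which the *hrde-1* promoter drives the tagged protein, and both were grown at 20 °C on OP50 and precipitated with the anti-FLAG M2 antibody. Pairs from the same stage and temperature were set beside them where a comparison needed them: WAGO-1 IPs of *GFP::WAGO-1* and *cde-1(tm936);GFP::WAGO-1* animals, driven by the *wago-1* promoter, and total small RNA of N2 and *cde-1(tm936)* animals. With 1 library per genotype in each pair there was no replicate check, and no difference between genotypes was tested. An IP from untagged animals was not analysed here.

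HRDE-1 is a germline Argonaute that carries 22G-RNAs, short antisense siRNAs made by RNA-dependent RNA polymerases on target transcripts, into the nucleus, where it silences those targets and keeps the silencing heritable. WAGO-1 carries siRNAs of the same kind in germ granules of the cytoplasm, and CSR-1 carries another set that covers most genes expressed in the germline. CDE-1, listed in the annotation as *cid-1*, is a nucleotidyltransferase that adds uridines to the 3′ ends of siRNAs, those of CSR-1 included. An siRNA that pairs with a transcript is read as antisense to it, so the measure of HRDE-1 siRNAs of a gene was its antisense reads per 1000000 counted reads outside class rRNA (RPM).

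The control library held 5200610 counted reads and the *cde-1* library 8438137, of which 4220469 and 6764794 lay outside class rRNA. Antisense reads on protein-coding genes made up 61.3% of these in the control and 66.1% in *cde-1*. Sense reads on protein-coding genes made up 23.7% and 22.8%, and sense reads on miRNA genes, whose products HRDE-1 is not known to bind, stood at 7212 and 6939 RPM. On *cid-1* itself, sense reads were at 80.3 RPM in the control and 24.7 RPM in *cde-1*. Antisense reads on *cid-1* were at 79.6 and 91.4 RPM, a ratio of 1.15 (95% interval 1.00 to 1.31). The piece removed by *tm936* was not located here, so these reads check the label only in part. All 7 germline marker genes (*pgl-1*, *glh-1*, *oma-1*, *puf-5*, *him-3*, *gld-1*, *mex-5*) carried antisense reads, in sum 726 RPM in the control and 1012 RPM in *cde-1*. The sums over 3 markers each of muscle, neuron, intestine and hypodermis were between 6.397 and 70.6 RPM in the control and between 5.47 and 58.7 RPM in *cde-1*. No marker was at 0 in either library. The sense reads of the same markers were in sum 550 RPM in the control and 432 RPM in *cde-1* for germline, 881 and 970 RPM for muscle, 20.6 and 18.8 RPM for neuron, 1687 and 2780 RPM for intestine and 212 and 406 RPM for hypodermis. Their part in the differences between genotypes was not tested. All intervals cover counting error only, and PCR copies were not removed by molecular identifiers, so reads are not independent molecules. Fewer cells of a type and less RNA per cell cannot be told apart in these bulk libraries.

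Among the larger classes, transposon siRNAs were furthest below the control. Antisense reads on transposon features were at 82322 RPM in the control and 40603 RPM in *cde-1*, a ratio of 0.493 (0.491 to 0.496). The same ratio was 0.785 in the WAGO-1 pair and 0.523 in the total pair. The ratio was 1.08 for the antisense reads of protein-coding genes, 0.825 for those of lincRNAs and 1.48 for those of snoRNAs. Of the whole classes, antisense reads on small genes of the splicing machinery were furthest above the control. The snRNA reads were at 56.4 and 314 RPM, a ratio of 5.57 (4.87 to 6.36), and spliced leader reads at 68.9 and 320 RPM, a ratio of 4.65 (4.11 to 5.25). Sense reads on spliced leader genes had a ratio of 3.41. The rRNA class had an antisense ratio of 1.30, from 29844 and 38661 RPM. Its features were split by the strand that held most reads in these same 2 libraries. The 17 read mainly on their own strand had 403 RPM of antisense reads in the control and 3877 RPM in *cde-1*, a ratio of 9.62. The other 7, read mainly on the opposite strand, had 152 and 1691 RPM with the strands exchanged, a ratio of 11.1.

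Most tested genes kept HRDE-1 siRNAs within 2-fold, and among the others gains outnumbered losses, where a gain or a loss is a difference of 2-fold or more between the 2 libraries. Of 20535 protein-coding genes, 6090 had a mean of at least 10 RPM over both libraries and were compared. In *cde-1*, 1762 of them (28.9%) were higher by 2-fold or more and 722 (11.9%) were lower, on RPM with 0.5 added. The median log2 ratio was 0.37. That split depended on the scaling: edgeR's TMM factor moved every log2 ratio by -0.35, with 1166 genes higher and 1053 lower, and 52.5% of the called genes were then higher, where 70.9% had been. Values of gene groups are therefore to be read beside those of all tested genes: a median of 0.37, 28.9% higher and 11.9% lower. With TMM the median of all tested genes was 0.03. For the same genes, 12% were higher and 9.69% lower in the WAGO-1 pair, and 13.9% were higher and 6.45% lower in the total pair. Sense reads outnumbered antisense reads in either library for 1754 of the tested genes, and 1934 overlapped a gene on the opposite strand, of whose sense reads the antisense count can hold a part. Without the first of these sets 915 genes were higher, and without the second 1138. Among genes named below, the first set holds *nlp-40*, *F56B3.6*, *mes-2*, *mes-3*, *mes-6*, *met-1*, *emb-4*, *wago-1*, *alg-1*, *alg-2* and *ergo-1*. It also holds *drh-3*, *dcr-1*, *xrn-1*, *mtr-4*, *him-17*, *math-33*, *spe-39*, *rplp-0*, *clec-125* and *unc-54*, among others.

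**Figure D1:**
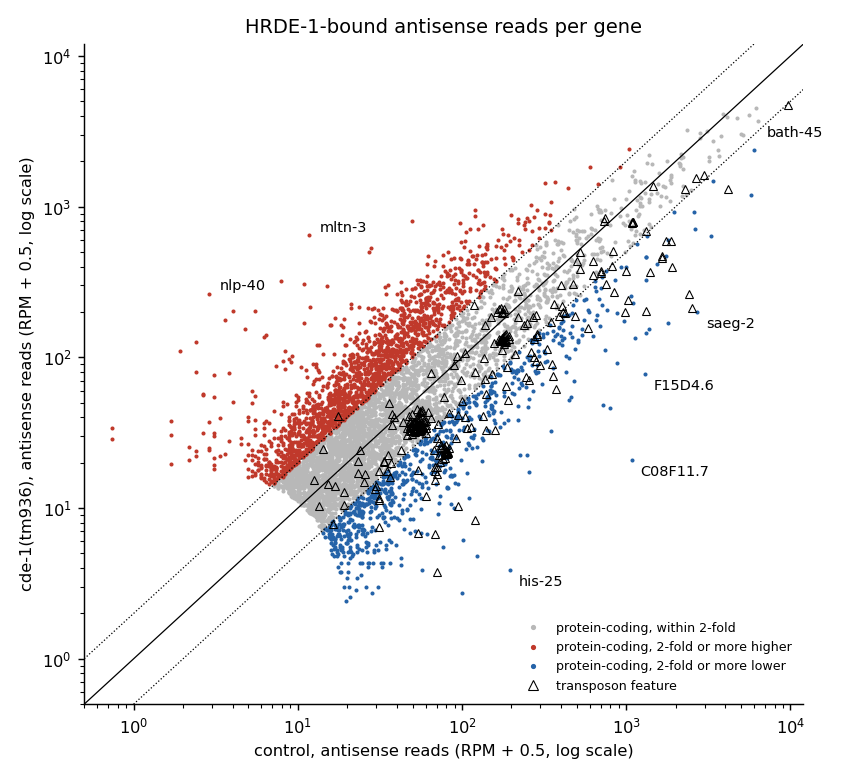
Antisense reads in the HRDE-1 IP of control (x axis) and *cde-1(tm936)* (y axis), in RPM with 0.5 added on log axes, for the 6090 tested protein-coding genes (dots) and 250 transposon features (triangles). Solid and dotted lines mark equal levels and a 2-fold difference; the points above the upper dotted line lie mainly at low control levels, and transposon features lie mainly under the solid line.

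The control level of a gene per kb of exon and its ratio went in opposite directions. Genes entered by RPM but were ordered by RPM per kb, so a long gene could enter at a lower level per kb. Ratios also differed by exon length, as given below. The part of length in these orders was not tested. In the quintile of genes with the lowest control siRNAs (median 5.01 RPM per kb of exon), 637 genes were higher in *cde-1* and 26 lower. In the quintile with the highest (median 122.7 RPM per kb), 81 were higher and 321 lower, with a median log2 ratio of -0.34. The control level enters the ratio. A gene under 10 RPM in the control also passed the mean minimum only if its *cde-1* level was above 10 RPM. Gains among genes with low control levels were thus in part set by the choice of genes. The order was therefore repeated on levels that do not favour one library. By the mean of both libraries, 308 were higher and 132 lower in the bottom quintile, while the top quintile (median 130 RPM per kb) had 230 higher and 217 lower. By the N2 total library, which enters no HRDE-1 ratio, the top quintile had 221 higher and 211 lower, and the other quintiles had between 300 and 413 higher and between 99 and 181 lower. By the WAGO-1 control, which enters no HRDE-1 ratio either, gains went from 599 in the bottom quintile to 103 in the top one, and losses from 19 to 322. The top quintile had the fewest gains and the most losses in each of these orders, whereas the bottom quintile had the most gains by HRDE-1 control level and by WAGO-1 level but not by mean level or N2 level. With TMM scaling the balance turned in some quintiles: by mean level the bottom one had 189 higher and 191 lower and the top one 165 and 299, and by N2 level they had 218 and 257 and 143 and 293.

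The genes with the most HRDE-1 siRNAs held a smaller share of them in *cde-1*. In the control, 270 genes held 50% of the antisense reads on protein-coding genes, and in *cde-1* it took 472. The 100 genes with the most reads in each library held 34.0% and 24.9%. The number of genes that held 90% was close, 3623 in the control and 3550 in *cde-1*. In the WAGO-1 IPs those 50% were held by 118 genes in the control and 109 in *cde-1*, and in total small RNA by 857 and 1090.

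Among genes called WAGO-1-preferring by RPM, losses of HRDE-1 siRNAs outnumbered gains, and among the others gains outnumbered losses. Preference was set from the WAGO-1 control and the N2 total library, neither of which enters the HRDE-1 ratio. Antisense reads on all protein-coding genes were at 687945 RPM in the former and 110840 RPM in the latter. A gene can therefore be called preferring without being enriched above the average gene, and the classes only rank genes by this RPM ratio. Of 3235 genes at least 2-fold higher in the WAGO-1 IP than in total small RNA, 412 (12.7%) were higher and 670 (20.7%) lower in *cde-1*, with a median log2 ratio of -0.19. Of 2289 genes within 2-fold, 1019 were higher and 47 lower, with a median of 0.89. Of 566 genes at least 2-fold lower in WAGO-1, 331 (58.5%) were higher and 5 lower, with a median of 1.24. The medians stood in this order in each quintile of mean level: in the top quintile they were -0.18, 1.17 and 1.25. The 100 genes with the most reads in the WAGO-1 control together held 31.8% of the HRDE-1 reads on genes in the control and 20.5% in *cde-1*.

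Among the longest genes gains outnumbered losses, and among the shortest losses outnumbered gains. In the shortest quintile (median 703 nt of exon) 128 genes were higher and 216 lower, and in the longest (median 3798 nt) 613 were higher and 78 lower. Their median log2 ratios were -0.16 and 1.04. With TMM the shortest had 87 higher and 325 lower, and the longest 473 and 107. In the total pair the medians of the same quintiles were -0.08 and 0.70.

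**Figure D2:**
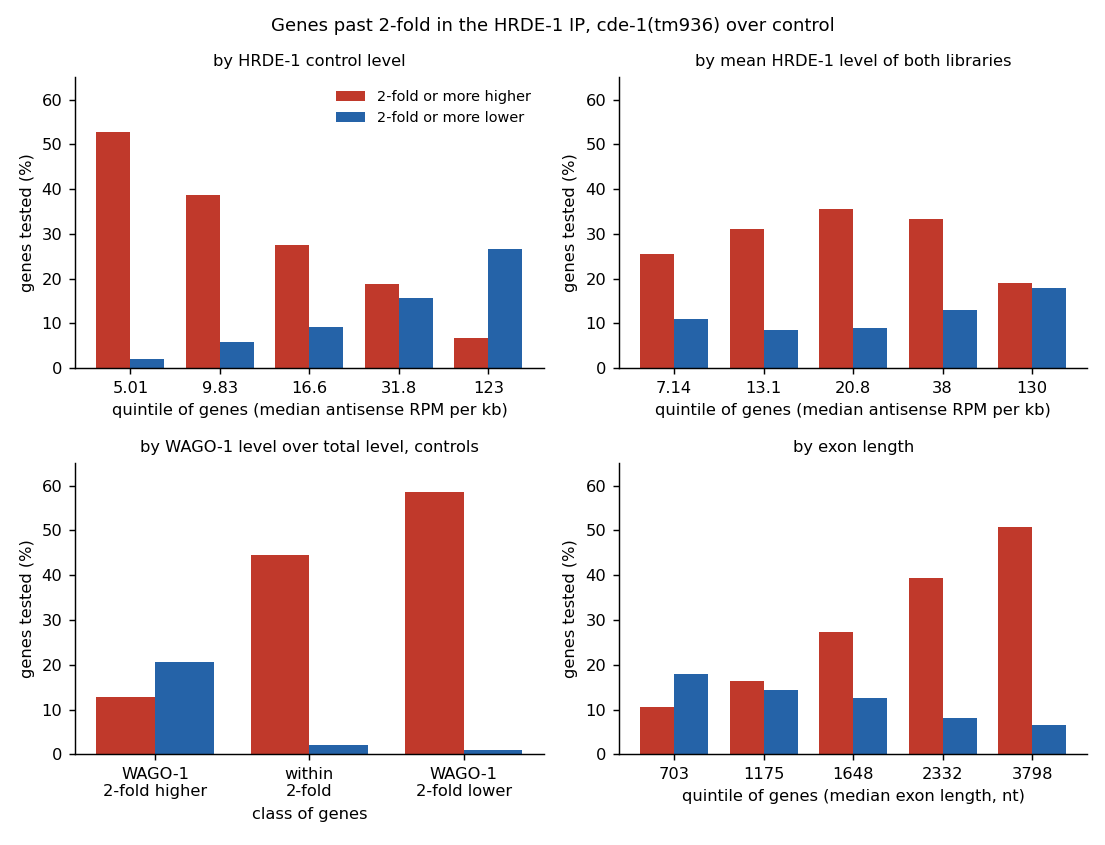
Percent of tested genes that were 2-fold or more higher (red) or lower (blue) in *cde-1(tm936)* in the HRDE-1 IP, by quintile of control level, quintile of mean level, class of WAGO-1 level over total level in the controls, and quintile of exon length. Losses exceeded gains in the top quintile of control level, in the WAGO-1-preferring class and in the shortest genes.

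On the X chromosome losses outnumbered gains, and on each autosome gains outnumbered losses, except on V with TMM, where 166 were higher and 203 lower. Of 434 tested X-linked genes, 34 (7.83%) were higher and 129 (29.7%) lower, with a median log2 ratio of -0.39, where 5603 autosomal genes had 1709 higher, 587 lower and a median of 0.43. The medians of the single autosomes ran from 0.31 on V to 0.59 on I. The X-linked genes also had a lower median in the WAGO-1 pair, at -0.24, and were at 0.02 in the total pair. Among WAGO-1-preferring genes, the median was -0.63 for 343 on the X and -0.14 for 2856 on autosomes. Among genes within 2-fold it was 0.49 for 69 on the X and 0.90 for 2205 on autosomes. For 583 of 1743 higher genes (33.4%, beside 28.9% of all tested genes) the nearest tested gene was also higher, and for 177 of 716 lower genes (24.7%, beside 11.9%) it was also lower.

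**Figure D3:**
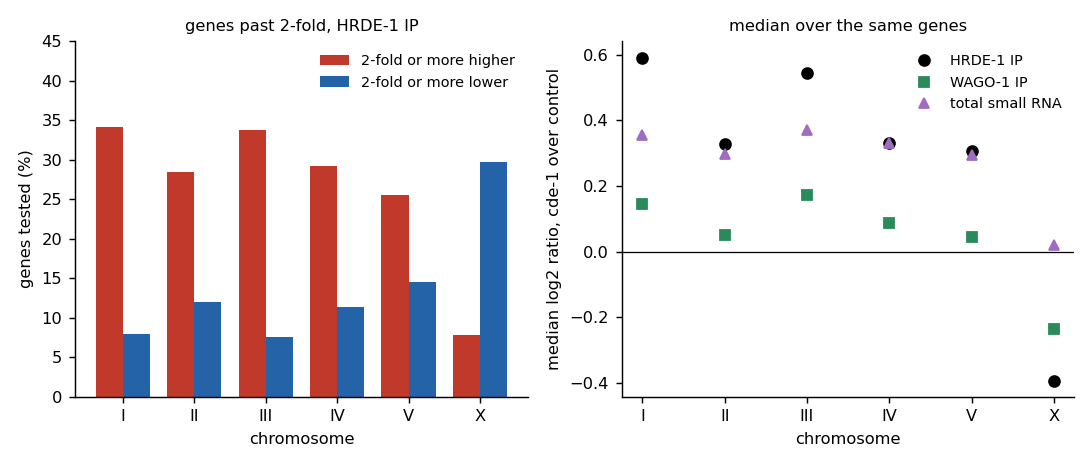
Left, percent of tested genes on each chromosome that were 2-fold or more higher (red) or lower (blue) in the HRDE-1 IP of *cde-1(tm936)*. Right, median log2 ratio of the same genes in the HRDE-1, WAGO-1 and total pairs; the X lies lowest in each pair.

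The 10 largest gains by ratio were taken among genes with a mean of at least 50 RPM over both libraries, so a low control level was built into their choice, and likewise a low *cde-1* level into that of the 10 largest losses. The gene for the neuropeptide-like protein NLP-40 (*nlp-40*, chromosome I, 11495 to 16837, WBcel235) had 10 antisense reads in the control and 1782 in *cde-1*, or 2.37 and 263 RPM. Its ratio was 111 (60.3 to 232), and it was also higher in the total pair (2.34 and 21.0 RPM). *F56B3.6*, on IV, went from 6 to 745 reads, or 1.42 to 110 RPM, a ratio of 77.5 (35.4 to 212); it overlaps *F56B3.4* on the opposite strand. Another group was a run of neighbours on II: *mltn-3* (13916340 to 13919677), *mltn-4* (13920555 to 13924726) and *mltn-5* (13925209 to 13930596). *mltn-3* had 11.1 RPM in the control and 646 RPM in *cde-1*, a ratio of 58.0 (43.5 to 79.0), *mltn-4* had 4.98 and 204 RPM, and *mltn-5* 3.55 and 204 RPM. The members of this run were also higher in both other pairs: *mltn-3* was at 163 and 984 RPM with WAGO-1 and at 2.19 and 102 RPM in total small RNA. The reference annotation gives *mltn-4* as a pseudogene, and reads can be shared between the relatives. The other 5 of the 10 largest gains were *Y71F9B.1*, *C18H2.4*, the globin-related *glb-29*, the EF-hand gene *efhd-1* and *cfap-36*, named for cilia, with control levels between 1.90 and 10.4 RPM and *cde-1* levels between 125 and 321 RPM. Of these, only *efhd-1* has no gene annotated on the opposite strand. All 10 had fewer than 50 antisense reads in the control, so their ratios carry wide intervals.

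Of the 10 largest losses by ratio, *C08F11.7* (IV, 13637275 to 13638666) had 4551 reads in the control and 138 in *cde-1*, or 1078 and 20.4 RPM. The control level was 52.9-fold that of *cde-1* (44.6 to 63.1). The gene was lower in both other pairs as well, at 1860 and 164 RPM with WAGO-1 and 85.3 and 1.79 RPM in total small RNA. *saeg-2* (III, 9240363 to 9242514), a gene of the EGL-4 kinase pathway, had 2708 RPM in the control and 199 RPM in *cde-1*, a control level 13.6-fold that of *cde-1* (12.8 to 14.4). It was at 3003 and 271 RPM with WAGO-1 and 225 and 9.15 RPM in total small RNA. *F15D4.6* (II, 13249186 to 13250063) had 1291 and 77.2 RPM. With WAGO-1 it was at 1907 and 234 RPM.

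Other losses among the 10 were not all seen in each pair. The histone H3 gene *his-25* (II, 13824849 to 13825259) had 195 RPM in the control and 3.40 RPM in *cde-1*, from 825 and 23 reads, but was at 1.87 and 11.7 RPM in total small RNA. Near-identical histone copies can share these reads, so which copy carried them is uncertain. *T05G5.4* (99.5 and 2.22 RPM) overlaps *T05G5.5* on the opposite strand. In the total pair *T05G5.4* had a log2 ratio of 1.08, but from low levels, 1.09 and 2.87 RPM. *R02D5.1* (122.7 and 4.29 RPM) was lower in the total pair, with a log2 ratio of -3.55. *kal-1*, the worm counterpart of the gene for anosmin, had 100.2 and 5.62 RPM, and the scramblase family gene *scrm-4* had 254 and 16.9 RPM. The latter was lower in the other pairs too, with log2 ratios of -3.80 with WAGO-1 and -1.83 in total small RNA. The last of the 10 were the copies *W09B7.2* (794 and 45.5 RPM) and *F07B7.2* (717 and 48.0 RPM) on V, which cannot be told apart by reads they share. Both were also lower with WAGO-1, at -4.76 and -4.62, and in total small RNA, at -3.02 and -2.93.

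**Figure D4:**
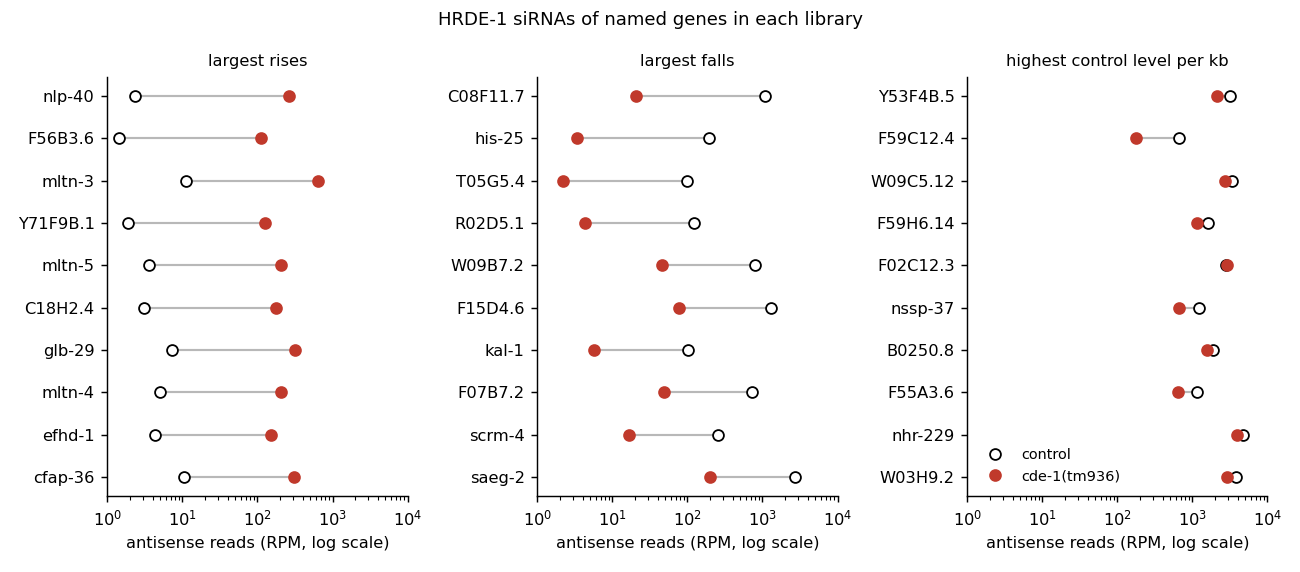
Antisense reads (RPM, log axis) in control (open circles) and *cde-1(tm936)* (red circles) HRDE-1 IPs for the 10 largest gains, the 10 largest losses and the 10 genes with the highest control level per kb. The choice by ratio and mean level sets low control levels for the gains (11.1 RPM or less) and high ones for the losses (99.5 to 2708 RPM); 9 of the 10 highest genes moved by less than 2-fold.

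The genes with the densest HRDE-1 siRNAs in the control mostly stayed within 2-fold. *Y53F4B.5* had the highest control level, 7294 RPM per kb, with 3173 RPM in the control and 2130 RPM in *cde-1*, a ratio of 0.671 (0.656 to 0.687). *W09C5.12* was at 3360 and 2735 RPM, the nuclear hormone receptor gene *nhr-229* at 4733 and 3901 RPM, and *W03H9.2* at 3767 and 2929 RPM. *F02C12.3*, on the X, had 2797 and 2854 RPM, a ratio of 1.02 (0.997 to 1.04), and was the one gene of the 10 that was not lower. The X-linked *F59C12.4* was the one past 2-fold, with 657 RPM in the control and 176 RPM in *cde-1*, a ratio of 0.269 (0.251 to 0.287).

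Genes reported as targets of nuclear RNAi differed among themselves. All 8 members found passed the level minimum. Of these, 0 were higher by 2-fold and 3 (37.5%) lower, with a median log2 ratio of -0.36. All tested genes had 28.9% higher, 11.9% lower and a median of 0.37. *bath-45*, a MATH and BTB domain gene with the most HRDE-1 siRNAs of the 8, had 6327 RPM in the control and 3715 RPM in *cde-1*, a ratio of 0.587 (0.577 to 0.597). *C38D9.2* had 1798 and 169 RPM, and with *W09B7.2* and *F07B7.2*, copies that share reads, made up the 3 lower members. Adjacent to those copies, *W09B7.1* (1311 and 145 RPM) and *F07B7.1* (1369 and 154 RPM) were lower as well; these were picked after their values were seen. By contrast *sid-1*, the gene for the channel that imports double-stranded RNA, had 549 and 693 RPM, *rde-11* 609 and 721 RPM, *E01G4.5* 58.5 and 71.5 RPM and *K02E2.6* 31.99 and 33.3 RPM. The latter pair is known from nuclear RNAi in somatic cells.

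Large gene families held most of the losses among the lists. All tested genes had 28.9% higher, 11.9% lower and a median log2 ratio of 0.37. Of 95 tested F-box genes, substrate receptors of ubiquitin ligases, 3 (3.16%) were higher and 33 (34.7%) lower, with a median of -0.69. *fbxa-194* (72.3 and 10.3 RPM) had the largest fall among them and *fbxa-206* (13.5 and 31.3 RPM) the largest rise, while *fbxb-14*, with the highest level, stood at 2161 and 2219 RPM. *fbxa-149*, chosen after its values were seen, had 2639.5 and 705 RPM. Of 39 nuclear hormone receptor genes, 5 (12.8%) were higher and 13 (33.3%) lower, with a median of -0.46. *nhr-21* had 34.1 and 4.88 RPM and *nhr-66* had 31.5 and 118.9 RPM. Of 35 MATH and BTB genes, 2 (5.71%) were higher and 7 (20%) lower, with a median of -0.42. *math-1* was at 269 and 59.0 RPM. The higher *math-33* (32.2 and 177 RPM) encodes a ubiquitin protease rather than an adaptor.

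Histone and ribosomal protein genes also lay under the median of all genes. Of 26 tested histone genes, 2 (7.69%) were higher and 9 (34.6%) lower, with a median log2 ratio of -0.54. These stood beside 28.9%, 11.9% and 0.37 for all tested genes. The linker histone gene *his-24*, the most covered, had 2204 and 1377 RPM, and the H3.3 gene *his-72* was higher, at 12.1 and 29.7 RPM. In the total pair the median of the same histone genes was 0.50. Of 36 ribosomal protein genes, 2 (5.56%) were higher and 5 (13.9%) lower, a share of losses near that of all genes, with a median of -0.41. *rpl-11.2* had 36.02 and 10.2 RPM, *rplp-0* had 8.06 and 18.3 RPM, and the most covered, *rpl-42*, had 236 RPM in the control and a ratio of 0.503. Sense reads on *rplp-0* were at 406 and 246 RPM.

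Genes that build oocytes and early embryos were higher or within 2-fold. Of 44 members of this list 41 were tested, of which 21 (51.2%) were higher and 0 lower, with a median log2 ratio of 1.00. These stood beside 28.9%, 11.9% and 0.37 for all tested genes. Neither this list nor those below were matched for exon length. In the longest quintile of all tested genes 50.7% were higher, with a median of 1.04, and in the next longest 39.3%, with a median of 0.72. The part of length in the list values was not tested. *pie-1*, which keeps germline blastomeres transcriptionally silent, had 45 reads in the control and 555 in *cde-1*, or 10.7 and 82.0 RPM, a ratio of 7.69 (5.67 to 10.7). This gene overlaps *snr-6* on the opposite strand. It was not higher in the other pairs by much, at 6.30 and 6.46 RPM with WAGO-1, and lower in total small RNA, at 18.3 and 10.4 RPM. The egg activation genes *egg-5* (133 and 753 RPM) and *egg-4* (125 and 714 RPM) are near copies of each other. The yolk receptor gene *rme-2* was at 42.4 and 231 RPM and the oocyte regulator *lin-41* at 57.8 and 228 RPM. *oma-1* stayed at 14.2 RPM in both, and *nos-2* had 42.6 and 34.1 RPM. In the WAGO-1 pair the median of these genes was 0.22, and in the total pair 0.50.

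Meiosis genes were higher or within 2-fold. Of 20 tested, 10 (50%) were higher and 0 lower, with a median of 0.97, beside 28.9%, 11.9% and 0.37 for all genes. They included the cohesin subunits *rec-8* (48.8 and 134 RPM), *coh-3* (50.5 and 170 RPM) and *coh-4* (33.6 and 101 RPM) and the synaptonemal complex gene *syp-4* (66.6 and 205 RPM). *him-17*, needed for meiotic breaks, had 28.9 and 123.1 RPM, and the checkpoint kinase gene *chk-2*, the most covered, had 230 and 283 RPM.

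**Figure D5:**
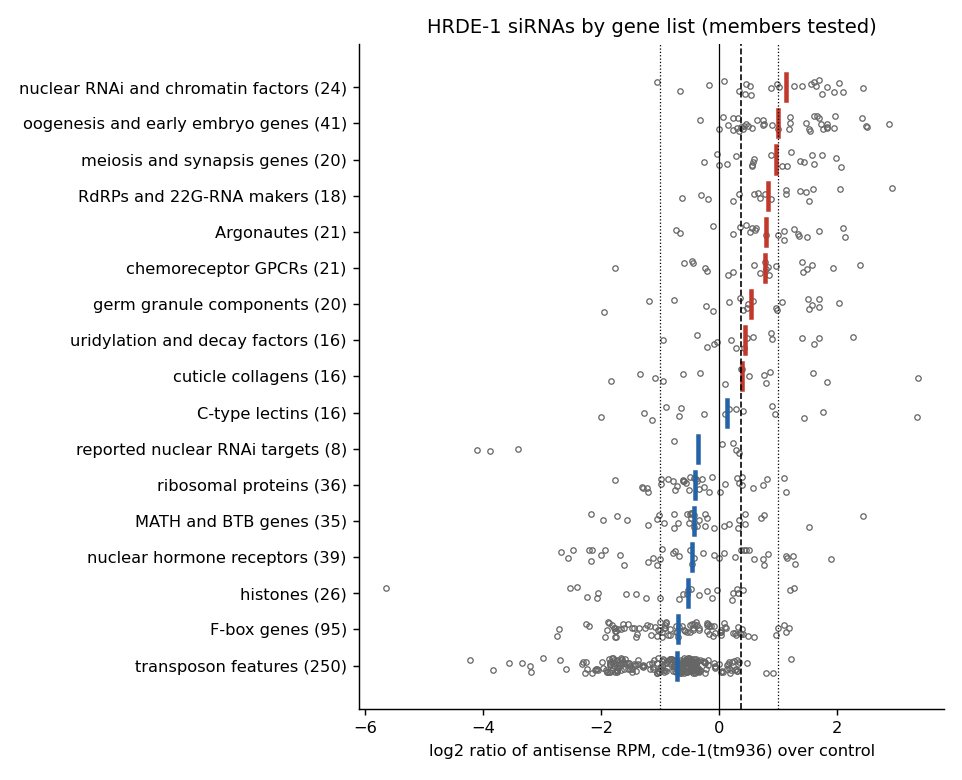
Log2 ratio of antisense RPM, *cde-1(tm936)* over control, in the HRDE-1 IP for each tested member (circles, spread vertically for sight) of the lists with at least 8 tested members, and for transposon features. Thick bars are medians, red above and blue below the median of all tested genes at 0.37 (dashed line); dotted lines mark 2-fold, and the solid line no change.

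Genes of the small RNA pathways also carried antisense reads in the HRDE-1 IP. Many of the genes named are long, such as *csr-1* (3668 nt of exon), *alg-1* (6696 nt) and *rrf-3* (5530 nt). In the longest quintile of all tested genes 50.7% were higher, with a median log2 ratio of 1.04, and in the next longest 39.3%, with a median of 0.72. The part of length here was not tested. Of 21 tested Argonaute genes, 9 (42.9%) were higher and 0 lower, with a median of 0.80, beside 28.9%, 11.9% and 0.37 for all genes. *csr-1* had 243 RPM in the control and 787 RPM in *cde-1*, a ratio of 3.24 (3.03 to 3.47). *rde-1*, the primary Argonaute for exogenous RNAi, had 20.6 and 90.5 RPM, and *wago-1* 49.05 and 127 RPM. Sense reads on *wago-1* were at 162 and 112 RPM. The miRNA Argonaute genes *alg-1* (12.8 and 33.3 RPM) and *alg-2* (8.29 and 38.1 RPM) were higher, as were *ergo-1*, *ppw-1*, *prg-2* and *sago-2*, with *cde-1* levels between 72.7 and 164 RPM. *hrde-1* itself had 689 and 944 RPM of antisense reads, a ratio of 1.37 (1.31 to 1.43), beside 2504 and 2268 RPM of sense reads. Both strains also carry the *GFP::HRDE-1* transgene, so reads of the transgene and of the endogenous gene cannot be told apart. Antisense reads on *hrde-1* were at 192 and 152 RPM with WAGO-1 and at 48.7 and 104 RPM in total small RNA.

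Of 18 tested genes for makers of 22G-RNAs, 8 (44.4%) were higher and 0 lower, with a median of 0.82. All tested genes had 28.9%, 11.9% and 0.37. *rrf-3*, the polymerase of the ERI pathway, had 34.1 and 263 RPM, a ratio of 7.70 (6.49 to 9.19). The other polymerase genes *ego-1* and *rrf-1* were at 96.4 and 279 RPM and at 69.2 and 179 RPM. The helicase genes *drh-1*, *drh-3* and *rde-12*, the exonuclease gene *mut-7* and the nuclease gene *nyn-1* were also past 2-fold, with ratios between 2.21 and 4.20. Sense reads on *drh-3* were at 93.8 and 59.7 RPM, beside 36.5 and 102 RPM antisense. *rde-11*, the most covered, was at 609 and 721 RPM.

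Of 24 nuclear RNAi and chromatin genes, 13 (54.2%) were higher and 1 (4.17%) lower, with a median of 1.14. All tested genes had 28.9%, 11.9% and 0.37. The Polycomb-type genes *mes-6* (11.8 and 66.4 RPM), *mes-3* (14.5 and 63.4 RPM) and *mes-2* (22.0 and 53.96 RPM) were higher, and so was *mes-4* (70.1 and 221 RPM). Sense reads on *mes-2* were at 203 and 215 RPM, above its antisense reads. Among the histone methyltransferases, *met-1* had 22.0 and 92.2 RPM, *set-25* 42.6 and 132 RPM, *set-32* 37.7 and 101 RPM and *set-2* 132 and 430 RPM. Sense reads on *met-1* were at 57.6 and 61.1 RPM. The nuclear RNAi genes *nrde-1* and *nrde-4* were at 73.0 and 285 RPM and at 23.2 and 79.1 RPM. *emb-4*, *lin-61* and *hrde-4* were past 2-fold too, with ratios between 2.02 and 3.59. The HP1 gene *hpl-1*, on the X, was the lower member, with 77.2 and 37.0 RPM.

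Of 16 tested uridylation and decay genes, 4 (25%) were higher and 0 lower, a share of gains near the 28.9% of all genes, with a median of 0.45. *dcr-1*, the Dicer gene, had 45.3 and 221 RPM, the exonuclease gene *xrn-1* 52.1 and 169 RPM, the exosome helicase gene *mtr-4* 29.4 and 91.1 RPM and *disl-2*, a DIS3-like exonuclease gene, 59.2 and 157 RPM. *xrn-2*, the most covered, was at 329 and 253 RPM.

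Of 20 tested germ granule genes, 7 (35%) were higher and 2 (10%) lower, shares near those of all tested genes (28.9% and 11.9%), with a median of 0.53. The nucleoporin gene *npp-10* had 108 and 443 RPM, and the Vasa-like helicase genes *glh-2* and *glh-3* had 31.5 and 95.1 RPM and 25.8 and 84.6 RPM. The lower members *meg-4* (118 and 30.2 RPM) and *meg-3* (63.0 and 27.2 RPM), both on the X, are related scaffolds of embryonic P granules. *parn-1*, a piRNA trimming enzyme gene with the highest level, had 1847 and 1089 RPM.

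Families defined by symbol alone, picked after the values were seen, extended these groups. Of 25 tested *npp* nucleoporin genes 18 were higher and 0 lower (median 1.36), of 11 *klp* kinesin genes 7 were higher and 2 lower (1.47), and of 12 *rpn* proteasome genes 8 were higher and 0 lower (1.34). At the other end were the *fbxa* and *fbxc* genes, each with a median of -0.90. All tested genes had 28.9% higher, 11.9% lower and a median of 0.37.

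Families with roles mainly outside the germline, and the lists of sperm genes, were little covered. Of 1349 chemoreceptor genes 21 passed the level minimum, of which 6 (28.6%, beside 28.9% of all genes) were higher and 1 lower, with a median of 0.78, which went under the median of all genes when the minimum was 1 RPM. *srd-70* was at 60.2 and 316 RPM, *srt-65* at 19.2 and 5.32 RPM and *srt-43* at 328 and 239 RPM. The list holds *odr-1*, *odr-4* and *odr-8* by name, which are not receptors and were within 2-fold. Of 250 C-type lectin genes 16 were tested, with 3 higher and 3 lower (18.75% each, beside 28.9% and 11.9% of all tested genes). Among them were *clec-125* (15.4 and 163 RPM) and *clec-12* (78.0 and 19.1 RPM). Sense reads on *clec-125* were at 234 and 291 RPM. Of 176 cuticle collagen genes 16 were tested, with 3 higher and 3 lower (18.75% each). Among them were *col-87* (8.53 and 93.0 RPM) and *col-111* (156 and 43.6 RPM). No major sperm protein gene (31) and no vitellogenin gene (6) reached the minimum. Of 38 sperm-specific genes 6 were tested, with 1 (16.7%) higher and none lower. The higher gene was *spe-39* (12.8 and 36.5 RPM), which also acts in vesicle traffic elsewhere. In the somatic lists 5 muscle, 3 neuron, 1 intestine and 2 hypodermis genes were tested. The called members were the muscle myosin gene *unc-54* (19.0 and 8.57 RPM), 20% of its list, and the neuropeptide processing gene *egl-21* (41.9 and 315 RPM), 33.3% of its list.

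Most transposon features had fewer siRNAs in *cde-1*. Of 349 features 250 were tested, of which 91 (36.4%) were lower by 2-fold or more and 1 (0.4%) higher. Of the 250, 227 were lower in *cde-1* by any amount, and the median log2 ratio was -0.72, beside -0.23 in the WAGO-1 pair and -0.62 in the total pair. *T27C5.9* had the most siRNAs, 9638 RPM in the control and 4699 RPM in *cde-1*. *F44E2.2* had 2525 and 212 RPM, a ratio of 0.0840 (0.0794 to 0.0887), and was at 79.3 and 19.8 RPM with WAGO-1. *Y60A3A.30* (69.4 and 3.25 RPM) and *F45D11.6* (118.94 and 7.83 RPM) had the other largest losses. *Y108F1.2* (17.1 and 40.4 RPM), *F21D9.7* (118 and 221 RPM) and *Y76B12C.5* (13.7 and 24.1 RPM) had the highest ratios, of which only the first passed 2-fold. Copies of one element share sequence, so features are not independent and reads cannot be assigned to a copy with certainty.

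The ratios of single genes were related to those in the WAGO-1 IP. Across 3749 genes with a mean of at least 10 RPM in both the HRDE-1 and the WAGO-1 pair, which share no library, Spearman's rho of the log2 ratios was 0.70. Genes are not independent replicates, and the mutation and gene lengths are common to both pairs. Of these 3749 genes, 606 were lower and 947 higher with HRDE-1, and 497 were lower and 575 higher with WAGO-1. Lower in both were 346, which is 57.1% of those lower with HRDE-1 and 69.6% of those lower with WAGO-1. Another 393 were higher in both, 41.5% of those higher with HRDE-1 and 68.3% of those higher with WAGO-1. Of opposite calls, 3 genes were higher with HRDE-1 and lower with WAGO-1, and 4 the other way round. Across 2314 genes shared with the total pair rho was 0.68. Of these, 1026 were higher with HRDE-1 and 470 in the total pair, 379 of them in both. Lower were 180 and 159, with 106 in both.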

How the data were processed

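The authors treated small RNAs with phosphatase and kinase so that cloning did not depend on the 5′ phosphate, mapped cleaned reads to the WS243 transcriptome with Bowtie2 (default parameters, version not given in the sources used here) and counted them by transcript in Perl. Their deposited values are raw counts on the same and the opposite strand of each transcript. The 3 and 2 rows with no class or gene (15 and 4 reads) were left out. Counts were summed per gene and divided by counted reads outside class rRNA. Genes with a mean of at least 10 RPM over both libraries were compared by log2 ratio with 0.5 RPM added, and 2-fold was the call. With 1 library per genotype no test was run. Ratios of classes have log-normal and those of genes exact conditional 95% intervals. The samples of the tail sequencing table, with 6 columns of values, were not used.

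Gene positions came from Ensembl release 115 (WBcel235; 44852 of 45510 genes matched) and names from RefSeq (44187). Gene sequences were not used here. The members and the gene lists were chosen with earlier results of these data known. Named genes were the 10 largest changes each way with a mean of at least 50 RPM, the 10 highest control levels per kb, the largest rise, largest fall and highest level in each of 23 lists, all called genes of the 4 small RNA lists, *cid-1*, *hrde-1* and 3 transposon features each way. Other genes named, such as *egg-4*, *rme-2*, *lin-41*, *oma-1*, *nos-2*, *rec-8*, *coh-3*, *coh-4*, *syp-4*, *glh-2*, *glh-3*, *meg-3* and *T27C5.9*, as examples or as the rest of a list, were picked after their values were seen. Alternatives were other denominators and scalings, level minimums, pseudocounts and sets of genes left out. Code was tested on simulated data. Versions were edgeR 4.0.16 (R 4.3.3), scipy 1.17.1, pandas 2.3.3, numpy 2.4.6 and matplotlib 3.10.9, in Python 3.11.15.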

Additional observations from a re-analysis of the deposited data

Results flagged for a closer look

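Antisense reads on miRNA genes moved in opposite directions in the 2 Argonaute IPs. Their ratio of *cde-1* to control was 0.683 with HRDE-1 (191 and 209 reads) and 1.38 with WAGO-1. With 1 library per genotype, this difference was not tested.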

How the results depend on the processing

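No paired analysis was possible because the labels give no replicate numbers shared between groups and each genotype had 1 library, so no library could be left out either. Under other settings the number of genes 2-fold higher, 1762, was 1166 with TMM, 1107 with median-of-ratios scaling, 851 with a mean of at least 50 RPM, 915 without genes read mainly in sense and, chosen after seeing the data, 1138 without genes that overlap one on the opposite strand. In the last 3 fewer genes were compared. The number lower, 722, was 1089 with median-of-ratios scaling, 281 at 50 RPM, 1742 at 1 RPM and 2174 with no minimum. With TMM, 0 transposon features were higher. The ratio of protein-coding antisense reads (1.08) was 1.06 over all counted reads, 1.07 over those less sense rRNA and 1.12 over miRNA reads. That of transposons (0.493) was 0.487, 0.489 and 0.513 in the same order and 0.458 per antisense protein-coding read. Over the latter reads the ncRNA ratio, 1.03, turned to 0.953. The chemoreceptor median less that of all genes turned to -0.22 at 1 RPM; the cause was not tested. Of 319 values of genes named for a 2-fold difference, under all alternatives, 289 kept their call, 30 no longer passed 2-fold and 0 reversed, and of 156 list medians 137 moved little. TMM counts by chromosome and length, given with those results, were added after seeing the data.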
